A study of Mus musculus with 48 samples.

Results

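The MHC antigen presentation genes described here are 10 genes named by symbol for their function in the pathway, out of 24973 genes in the deposited table. *H2-K1*, *B2m*, *Tap1*, *Tap2* and *Nlrc5* serve MHC class I, and *H2-Aa*, *H2-Ab1*, *H2-Eb1*, *Cd74* and *Ciita* serve MHC class II. Each was measured in 48 libraries of microglia (MG), astrocytes (AC), endothelial cells (EC) and pericytes (PC), with 6 libraries for each of the 4 cell types and 2 hemispheres. All libraries came from male wild-type C57BL/6 mice, 12 to 15 weeks old, whose middle cerebral artery was occluded for 60 min, with both hemispheres taken at 24 h. The contralateral hemisphere of the same animals was the control, so every group carried the operation, and each library pooled 3 to 4 mice. Microglia were sorted as cells positive for CD11b with low CD45, and the other cells came from the fraction without CD45, as ACSA2 high astrocytes, VECAD positive endothelial cells and pericytes positive for both NG2 and PDGFRβ.

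MHC class I molecules present peptides from inside the cell on almost every nucleated cell type: the heavy chain encoded by *H2-K1* pairs with β2-microglobulin (*B2m*), peptides enter the endoplasmic reticulum through the transporter made of *Tap1* and *Tap2*, and NLRC5 drives transcription of these genes. MHC class II molecules present peptides taken up from outside, mostly on professional antigen presenting cells: *H2-Aa* with *H2-Ab1* encodes the I-A dimer, *H2-Eb1* the β chain of I-E, *Cd74* the invariant chain that escorts both, and CIITA is the class II transactivator. In the brain, class II is known as a marker of activated microglia and border macrophages, and interferon-γ raises both branches.

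Of the 10 genes, 6 lay in the MHC on chromosome 17, between positions 33996017 and 34316199 of GRCm38 in the deposited table. For 5 of the 10 genes the 250 bases before the transcription start are shown, because the class I and class II promoters are known to share the control modules that NLRC5 and CIITA work through. The sequences are from RefSeq on GRCm38.p6, written 5′ to 3′ on the gene's strand, and capitals mark every match to the motifs searched.
H2-K1 (chr17:34000334-34000583, minus strand): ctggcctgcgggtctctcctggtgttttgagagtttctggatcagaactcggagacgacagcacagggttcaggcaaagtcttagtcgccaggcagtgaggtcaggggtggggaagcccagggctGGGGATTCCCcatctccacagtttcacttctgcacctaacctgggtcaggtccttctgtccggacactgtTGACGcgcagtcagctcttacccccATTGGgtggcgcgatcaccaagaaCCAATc
B2m (chr2:122147437-122147686, plus strand): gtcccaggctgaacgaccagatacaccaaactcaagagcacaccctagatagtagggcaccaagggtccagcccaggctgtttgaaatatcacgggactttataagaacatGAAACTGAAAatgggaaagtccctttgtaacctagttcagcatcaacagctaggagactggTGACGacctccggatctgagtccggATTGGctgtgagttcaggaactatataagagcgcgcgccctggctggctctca
Tap1 (chr17:34187306-34187555, plus strand): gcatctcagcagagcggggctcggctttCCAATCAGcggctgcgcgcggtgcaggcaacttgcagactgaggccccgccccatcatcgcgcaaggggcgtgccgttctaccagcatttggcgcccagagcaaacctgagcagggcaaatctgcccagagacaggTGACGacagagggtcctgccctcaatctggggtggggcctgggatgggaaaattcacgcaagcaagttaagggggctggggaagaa
H2-Aa (chr17:34287824-34288073, minus strand): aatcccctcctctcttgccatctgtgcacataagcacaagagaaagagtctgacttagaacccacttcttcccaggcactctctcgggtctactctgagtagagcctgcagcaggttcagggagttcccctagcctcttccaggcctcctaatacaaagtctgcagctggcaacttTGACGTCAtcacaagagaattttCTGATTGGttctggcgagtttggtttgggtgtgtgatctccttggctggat
H2-Eb1 (chr17:34305617-34305866, plus strand): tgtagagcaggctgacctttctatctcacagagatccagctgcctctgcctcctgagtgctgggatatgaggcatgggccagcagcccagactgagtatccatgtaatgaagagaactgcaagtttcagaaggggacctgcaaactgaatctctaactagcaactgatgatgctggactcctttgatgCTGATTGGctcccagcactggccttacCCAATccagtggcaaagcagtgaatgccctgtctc

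The motifs were searched on both strands of these 250 bases, in the 5 genes and in all 32851 promoters of the table. ATTGG, the Y box core bound by NF-Y, occurred in all 5, and in 33.8% of all promoters. Its longer form CTGATTGG, which overlaps it, occurred in *Tap1*, *H2-Aa* and *H2-Eb1* and in 3.83% of all promoters. TGACG, the core of the X2 box, occurred in *H2-K1*, *B2m*, *Tap1* and *H2-Aa*, and in 17.8% of all promoters. The κB sequence, whose bases stand in capitals in *H2-K1*, occurred only in *H2-K1* among the 5, at -125, and in 0.0852% of all promoters. The form of an interferon response element, 2 copies of GAAA with 2 bases between them, occurred only in *B2m* among the 5, at -139, and in 2.98% of all promoters. TTCNNNGAA and CCNNGCAAC, forms of a gamma-activated site and of the X1 box, matched none of the 5 windows and 7.02% and 4.02% of all promoters. Only exact matches counted, so the lack of a match does not mean that an element is absent. Stretches that differ from CCNNGCAAC in the first base only stand in *Tap1*, *H2-Aa* and *H2-Eb1*. In *H2-K1* the X2 core began at -55 and the Y box core at -30, and in *B2m* at -78 and -53, counted back from the base before the start.

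The deposited values are read counts per gene that were scaled between libraries and rounded to whole numbers, called normalized counts here. They summed to between 10549900 and 16942165 per library, and in the 14 libraries where single reads left clear steps in the low values 1 read was worth 0.72 to 2.37 normalized counts. For 12 ipsilateral libraries the sample titles exchange pericytes and microglia with the column names of the table; the column names were used. The cell type markers fitted those names: the summed pericyte markers (*Pdgfrb*, *Des*, *Cd248*, *Cspg4*) were 34058 to 92716 in pericyte libraries and at most 6319 elsewhere. The summed endothelial markers were 50747 to 92219 in endothelial cell libraries and at most 6219 elsewhere. The summed microglia markers were 272901 to 589597 in microglia libraries and at most 74898 elsewhere. Astrocyte libraries also held RNA of oligodendrocyte markers, with sums of 28285 to 310837 against 41095 to 121715 for the astrocyte markers. Neuron markers summed to at most 7120 in astrocyte libraries and 1306 elsewhere. A few libraries stood apart for the genes described here: contralateral EC replicate 2 had 58566 normalized counts of *B2m*, ipsilateral MG replicate 2 had 83884 of *B2m*, and ipsilateral PC replicate 4 had 6105 of *Cd74*. In these sorted bulk samples, fewer cells of a type and less RNA per cell cannot be told apart.

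In the contralateral hemisphere, the class I chains *H2-K1* and *B2m* were most abundant in endothelial cells and microglia, and the class II genes other than *Ciita* had their highest medians in microglia. *H2-K1* was at 9841 ± 2444 normalized counts (SD, n = 6) in endothelial cells and 7837 ± 1486 in microglia, but at 2058 ± 283 in pericytes and 2590 ± 851 in astrocytes. Endothelial cells and microglia overlapped and differed by 0.30 on the log2 scale (SE 0.21, adjusted p = 0.26, limma), while microglia exceeded astrocytes by 1.65 (SE 0.21, adjusted p = 8.3e-09) and astrocytes differed from pericytes by 0.27 (SE 0.21, adjusted p = 0.31). For *B2m* the same pairs of cell types lay at the top and at the bottom but in the opposite order within each pair. Contralateral *B2m* was at 32359 ± 5479 in microglia and 27523 ± 16136 in endothelial cells, against 3213 ± 913 in pericytes and 1773 ± 987 in astrocytes. Endothelial cells exceeded pericytes in *B2m* by 2.98 on the log2 scale (SE 0.34, adjusted p = 1.2e-09), and pericytes exceeded astrocytes by 0.96 (SE 0.34, adjusted p = 0.019), a call lost without replicate 1 or 3 or in replicates 1 to 4 alone.

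Of the transporter genes, *Tap2* ranged from 1136 to 1919 in microglia, 484 to 2510 in endothelial cells, 744 to 1119 in pericytes and 610 to 1329 in astrocytes, and no neighbours in that order passed the test. Farther apart in the order, *Tap2* was lower in astrocytes than in endothelial cells (log2 difference -0.73, SE 0.28, adjusted p = 0.026, limma) and higher in microglia than in astrocytes (0.74, SE 0.28, adjusted p = 0.024). These calls were lost in 5 and 3 of 17 alternatives. With the replicate block *Tap2* was also called higher in microglia than in pericytes (0.64, adjusted p = 0.045, against 0.053 without the block). *Tap1* had a median of 910 in microglia, 693.5 in endothelial cells, 334 in astrocytes and 202 in pericytes, where replicates 1 and 3 were listed at 0. Pericytes lay below endothelial cells in *Tap1* by a log2 difference of -3.74 (SE 0.89, adjusted p = 0.00072), and microglia exceeded pericytes by 4.40 (SE 0.89, adjusted p = 5.0e-05), both called in all 17 alternatives. Their sizes moved when 1 replicate or library was left out, from -4.48 to -2.57 against endothelial cells and from 3.32 to 5.15 against microglia. Astrocytes exceeded pericytes in *Tap1* by 2.86 on the log2 scale (SE 0.89, adjusted p = 0.0070). This call was lost without replicate 1 or 3 and in replicates 5 and 6 alone. *Nlrc5*, the class I regulator, was low everywhere: its contralateral medians were 50.5 in microglia, 28 in astrocytes, 14.5 in endothelial cells and 0 in pericytes, and 4 of 6 pericyte libraries of each hemisphere were listed at 0.

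Of the class II genes, *Cd74* separated microglia from the rest: 2826 ± 887 normalized counts in contralateral microglia (1793 to 4293) against 23 to 581 in endothelial cells, 68 to 635 in pericytes and 3 to 523 in astrocytes, with no overlap between microglia and any other group. Microglia exceeded pericytes, the next in order, by 3.66 on the log2 scale (SE 1.181, adjusted p = 0.0087). *H2-Eb1* was 2.79 higher in microglia than in astrocytes (SE 1.15, adjusted p = 0.039), a call lost in 7 of 17 alternatives. The step from microglia to the next group missed the threshold for *H2-Ab1* (3.14, SE 1.33, adjusted p = 0.053) and *H2-Aa* (2.77, SE 1.45, adjusted p = 0.11). With the replicate block both steps were called, with adjusted p of 0.023 for *H2-Ab1* and 0.043 for *H2-Aa*, as was *H2-Aa* in microglia against endothelial cells (3.03, adjusted p = 0.032). No difference between endothelial cells, pericytes and astrocytes passed the test for any class II gene tested. *Ciita*, the class II transactivator, had its highest medians in astrocytes, at 2 to 24 normalized counts contralaterally and 4 to 34 ipsilaterally, and 5 of 6 ipsilateral microglia libraries were listed at 0. Its highest single value was 70, in ipsilateral pericyte replicate 4, the library that also held the highest *Cd74*, *H2-Aa*, *H2-Ab1* and *H2-Eb1* values of the 48. Over the 6 pairs of cell types, 25 of 54 tests of the 9 genes with enough signal passed an adjusted p of at most 0.05 with a difference of at least 1.5-fold, beside 44.9% of all tests over all genes, and 14 of the 25 passed under each alternative that gave a value.

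Per kilobase of exon, which allows genes to be compared, *B2m* led in every cell type, with contralateral medians from 1817 normalized counts per kb in astrocytes to 35194 in microglia. *H2-K1* followed in each, from 689 in pericytes to 3540 in endothelial cells. In microglia *Cd74* came next with 1518 per kb, against 253 for *H2-Ab1*, 112 for *H2-Eb1* and 57.3 for *H2-Aa*. The regulators were the lowest in every cell type, with medians of at most 5.95 per kb for *Nlrc5* and at most 1.63 for *Ciita*.

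**Figure D1:**
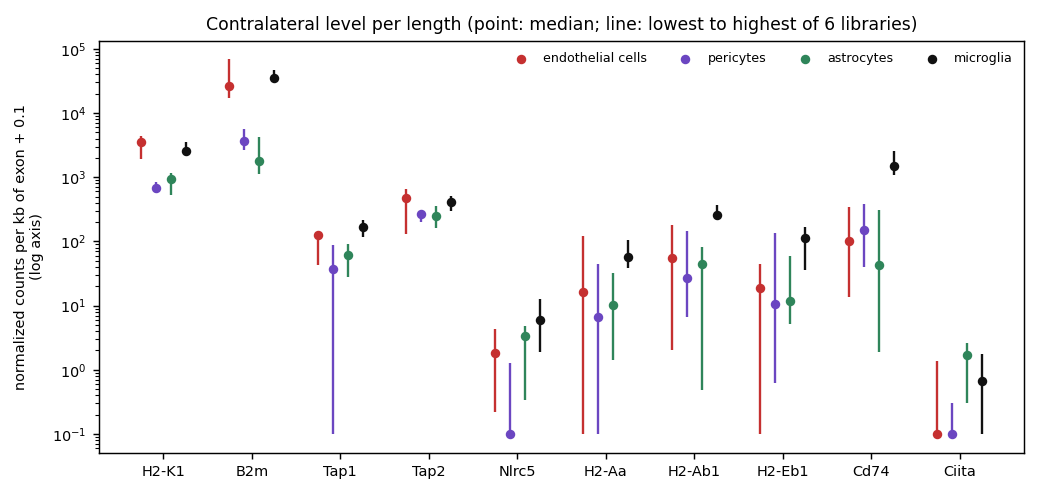
Contralateral level of each gene per kb of exon (log axis, 0.1 added), as the median (point) and the lowest to highest value (line) of 6 libraries in each cell type. *B2m* and *H2-K1* are highest in endothelial cells and microglia, *Cd74* stands clear in microglia, and *Nlrc5* and *Ciita* lie at the bottom in all 4 cell types.

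The question of the main comparison was what ischemia changed in each cell type by 24 h. A gene called regulated had an adjusted p of at most 0.05 (limma on log2(normalized count + 1), Benjamini-Hochberg over all genes), a change of at least 1.5-fold and more than 10 normalized counts in all 6 libraries of a hemisphere. No member was called in any cell type, and *Ciita* had a mean of at least 10, the minimum for testing, only in astrocytes. The counts were 0 of 9 in microglia, where 10.6% of all genes tested were called, 0 of 10 in astrocytes (0.341%), 0 of 9 in pericytes (1.02%) and 0 of 9 in endothelial cells (0.491%). At an unadjusted limma p under 0.05 there were 1 member in microglia (28% of all genes), 2 in astrocytes (9.28%), 3 in pericytes (15.4%) and 0 in endothelial cells (11.9%). With the replicate number as a block (the replicate block) there were 1 in microglia (30%), 2 in astrocytes (17.6%), 5 in pericytes (18.5%) and 3 in endothelial cells (13.6%). The members tested had a median log2FC of 1.19 in pericytes (-0.04 over all genes), 0.65 in astrocytes (-0.06), 0.53 in endothelial cells (-0.03) and 0.05 in microglia (-0.18). The pericyte median was 2.44 in replicates 1 to 4 alone and 0.19 in replicates 5 and 6 alone, so it is not a shift common to the pools. It includes *Nlrc5*, listed at 0 in 4 of 6 pericyte libraries of each hemisphere. *Nlrc5* reached the minimum for testing there through ipsilateral replicates 2 and 3 (60 and 101). Some intervals were narrow: for *H2-K1* the 95% interval was -0.42 to 0.57 in endothelial cells, -0.46 to 0.63 in astrocytes and -0.39 to 0.34 in microglia.

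**Figure D2:**
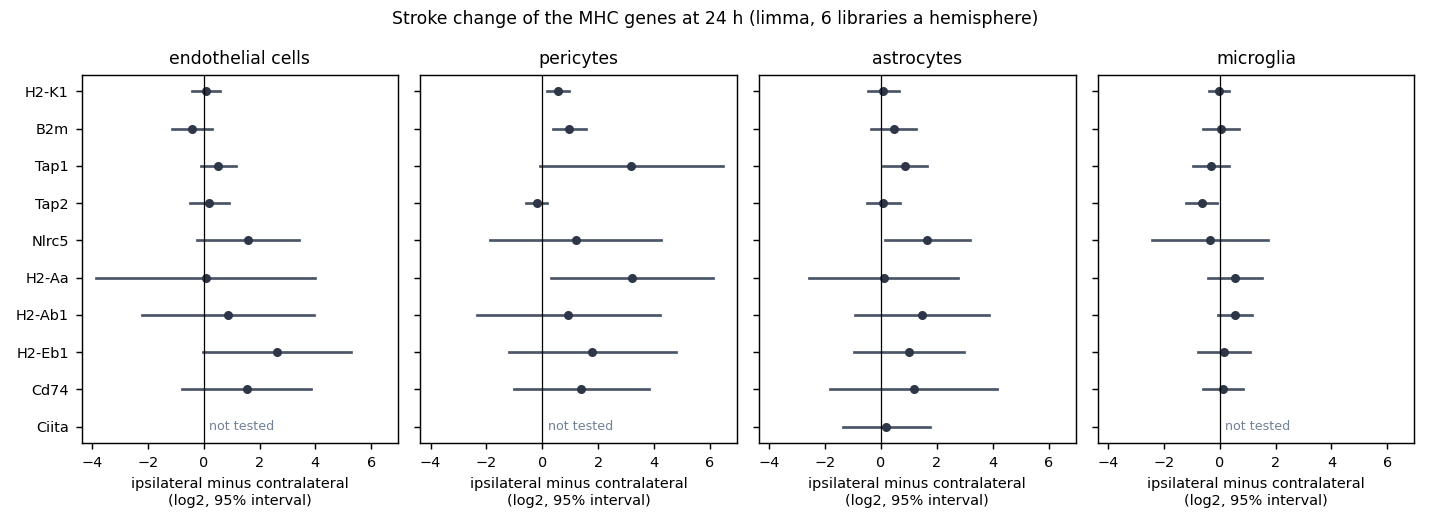
Ipsilateral minus contralateral difference (log2) of each gene with its 95% interval from limma, 6 libraries a hemisphere, in the 4 cell types. Intervals of *H2-K1*, *B2m* and *Tap2* are short, those of the class II genes in endothelial cells, pericytes and astrocytes span several log2 units, and *Ciita* was tested in astrocytes only.

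In pericytes the class I heavy and light chains lay higher on the ipsilateral side without passing the threshold. *B2m* was at 3496, 4754, 3432, 2961, 2300 and 2336 normalized counts in contralateral replicates 1 to 6 and at 4833, 4845, 11311, 8962, 3637 and 5816 in the ipsilateral ones. Every pair was higher ipsilaterally, a pattern held by 4.55% of all genes tested in pericytes, and replicates 3 and 4 differed most. The log2FC was 0.96 (SE 0.27, adjusted p = 0.10, limma), and 0.99 in replicates 5 and 6 alone. Replicates 3 and 4 were also the ipsilateral pericyte libraries with the highest summed microglia markers, at 21.3% and 16.9% of the mean of ipsilateral microglia, against 0.259% and 0.198% in replicates 5 and 6. *B2m* itself was at 37637 ± 23983 in ipsilateral microglia. The part of microglial RNA in the pericyte *B2m* values was not tested. *H2-K1* was at 1651 to 2466 (median 2025) contralaterally and 2271 to 4588 (median 2757.5) ipsilaterally, higher in 5 of 6 pairs, with a log2FC of 0.55 (SE 0.18, adjusted p = 0.17). The groups overlapped for both genes.

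*Tap1*, one subunit of the peptide transporter, was at 0, 482, 0, 173, 285 and 231 normalized counts in contralateral pericyte replicates 1 to 6 and at 122, 495, 559, 799, 539 and 219 ipsilaterally. Its log2FC of 3.19 (SE 1.52, adjusted p = 0.33) rested on the libraries listed at 0: it was 2.44 without replicate 1, 2.004 without replicate 3 and 0.42 in replicates 5 and 6 alone. With the spread shared over all 48 libraries the same difference had an adjusted p of 0.040 and was called, beside 1.92% of all genes. *Tap2*, the partner subunit, was at 978 ± 139 and 861 ± 190 (SD, n = 6), a log2FC of -0.20 (SE 0.17, adjusted p = 0.62).

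In astrocytes *Tap1* was higher ipsilaterally in 6 of 6 pairs, with 482, 212, 247, 152, 421 and 496 contralaterally and 716, 481, 346, 319, 687 and 1094 ipsilaterally. The groups overlapped, but each pair of equal replicate number was higher ipsilaterally, as for 5.02% of all genes tested. The log2FC was 0.86 (SE 0.36, adjusted p = 0.50, limma). With the replicate block the SE was 0.16 and the adjusted p 0.032, which made *Tap1* the only member called there, beside 1.59% of all genes. The value was 0.82 in replicates 1 to 4 and 0.92 in replicates 5 and 6. The summed oligodendrocyte markers were 28285 to 252636 contralaterally and 55906 to 310837 ipsilaterally in these libraries, and their part in the result was not tested. *Nlrc5* was also higher in 6 of 6 pairs, at 2 to 40 contralaterally and 30 to 91 ipsilaterally (log2FC 1.66, SE 0.71, adjusted p = 0.50). *H2-K1* was at 2590 ± 851 and 2708 ± 738 in the same libraries, and *B2m* at 1773 ± 987 and 2476 ± 1380.

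In endothelial cells, which had the highest *H2-K1* level, the gene was at 9841 ± 2444 contralaterally and 10253 ± 2119 ipsilaterally (log2FC 0.08, SE 0.23, adjusted p = 0.94). *B2m* was lower in 6 of 6 ipsilateral libraries than in their partners, as 5.19% of all genes tested were: 22514, 58566, 23315, 29734, 14614 and 16397 contralaterally, and 21828, 19265, 20931, 27726, 11095 and 15056 ipsilaterally. The pair of replicate 2 differed most, the log2FC was -0.40 (SE 0.34, adjusted p = 0.70), and without the contralateral library of replicate 2 it was -0.15. *Tap1* had a log2FC of 0.53 (SE 0.30, adjusted p = 0.51) and *Tap2* of 0.20 (SE 0.32, adjusted p = 0.87), and the latter became -0.13 without that library.

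In microglia *Tap2* was lower ipsilaterally in 6 of 6 pairs, a pattern held by 13.8% of all genes tested in microglia. It was at 1542, 1386, 1651, 1919, 1136 and 1536 contralaterally and 1096, 428, 966, 1657, 1092 and 992 ipsilaterally, with replicate 2 the lowest. The log2FC was -0.64 (SE 0.26, adjusted p = 0.12, limma), and -0.41 without the ipsilateral library of replicate 2. The other class I genes differed less, with a log2FC below 0 for *H2-K1*, *Tap1* and *Nlrc5* and above 0 for *B2m*. In the contralateral and ipsilateral hemisphere *H2-K1* was at 7837 ± 1486 and 7699 ± 1533, *B2m* at a median of 30267 and 28730.5, and *Tap1* at a median of 910 and 827.5. *B2m* had a log2FC of 0.05, which was -0.22 without the ipsilateral library of replicate 2, and *Nlrc5* went from -0.36 to 0.68 when the same library, listed at 0, was left out.

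**Figure D3:**
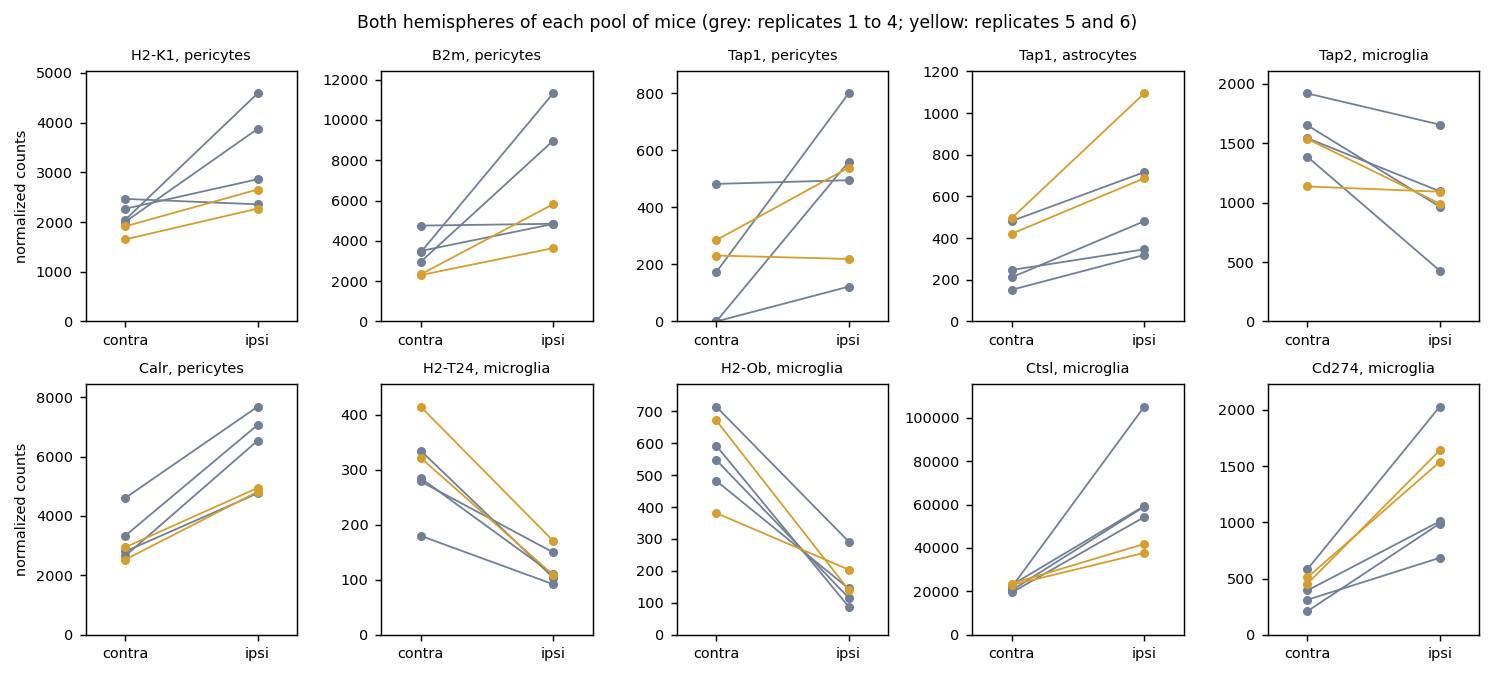
Normalized counts of both hemispheres, with lines joining equal replicate numbers (grey for replicates 1 to 4, yellow for 5 and 6), for members (upper row) and for called genes of the pathway lists (lower row). *B2m* in pericytes and *Tap1* in astrocytes are higher ipsilaterally in all 6 pairs and *Tap2* in microglia lower. The hemispheres do not overlap for the 5 list genes, which were picked because they were called in these same values.

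The class II genes varied most, and in ipsilateral pericytes replicates 5 and 6 stood below the other 4 pools. In ipsilateral pericytes *Cd74* was at 693, 1782, 2082 and 6105 in replicates 1 to 4 but at 40 and 51 in replicates 5 and 6, against 155, 635, 353, 388, 68 and 104 contralaterally. Its log2FC was 1.40 (SE 1.13, adjusted p = 0.59, limma), 2.54 in replicates 1 to 4 alone (adjusted p = 0.12) and -0.88 in replicates 5 and 6 alone. *H2-Aa* in pericytes was at 0, 171, 37, 55, 11 and 13 contralaterally and at 308, 540, 336, 2053, 20 and 15 ipsilaterally. It was higher in 6 of 6 pairs, with a log2FC of 3.21 (SE 1.35, adjusted p = 0.28), 4.57 in replicates 1 to 4 and 0.50 in replicates 5 and 6. *H2-Ab1* (log2FC 0.93, SE 1.52, adjusted p = 0.82) was 0.02 without ipsilateral replicate 4, which held 3245 of its normalized counts, and *H2-Eb1* (1.79, SE 1.40, adjusted p = 0.58) was -1.54 in replicates 5 and 6 alone.

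Astrocytes and endothelial cells also varied widely between pools. *Cd74* in astrocytes was at 273, 523, 36, 94, 3 and 51 contralaterally and 135, 945, 1541, 506, 18 and 6 ipsilaterally, with a log2FC of 1.17 (SE 1.40, adjusted p = 0.85, limma). The 4 class II genes tested in replicates 5 and 6 alone all lay below 0 there, from -1.0 to -0.32. In endothelial cells *Cd74* was at 581, 92, 249, 274, 26 and 23 contralaterally and 408, 1042, 2458, 355, 15 and 251 ipsilaterally (log2FC 1.55, SE 1.081, adjusted p = 0.62). In replicates 5 and 6 alone the endothelial value was 1.32 for *Cd74*, 0.71 for *H2-Ab1* and 1.75 for *H2-Eb1*, all above 0, and -0.16 for *H2-Aa*. *H2-Eb1* in endothelial cells was at 0 to 87 contralaterally and 10 to 479 ipsilaterally, higher in 5 of 6 pairs, with a log2FC of 2.63 (SE 1.23, adjusted p = 0.42). Microglia, the cells with the highest class II level, showed smaller differences: *Cd74* was at 2826 ± 887 and 3306 ± 1556 (log2FC 0.11, SE 0.34, adjusted p = 0.86) and *H2-Ab1* at 719 ± 163 and 1124 ± 553 (0.53, SE 0.29, adjusted p = 0.24), higher in 5 of 6 pairs.

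**Figure D4:**
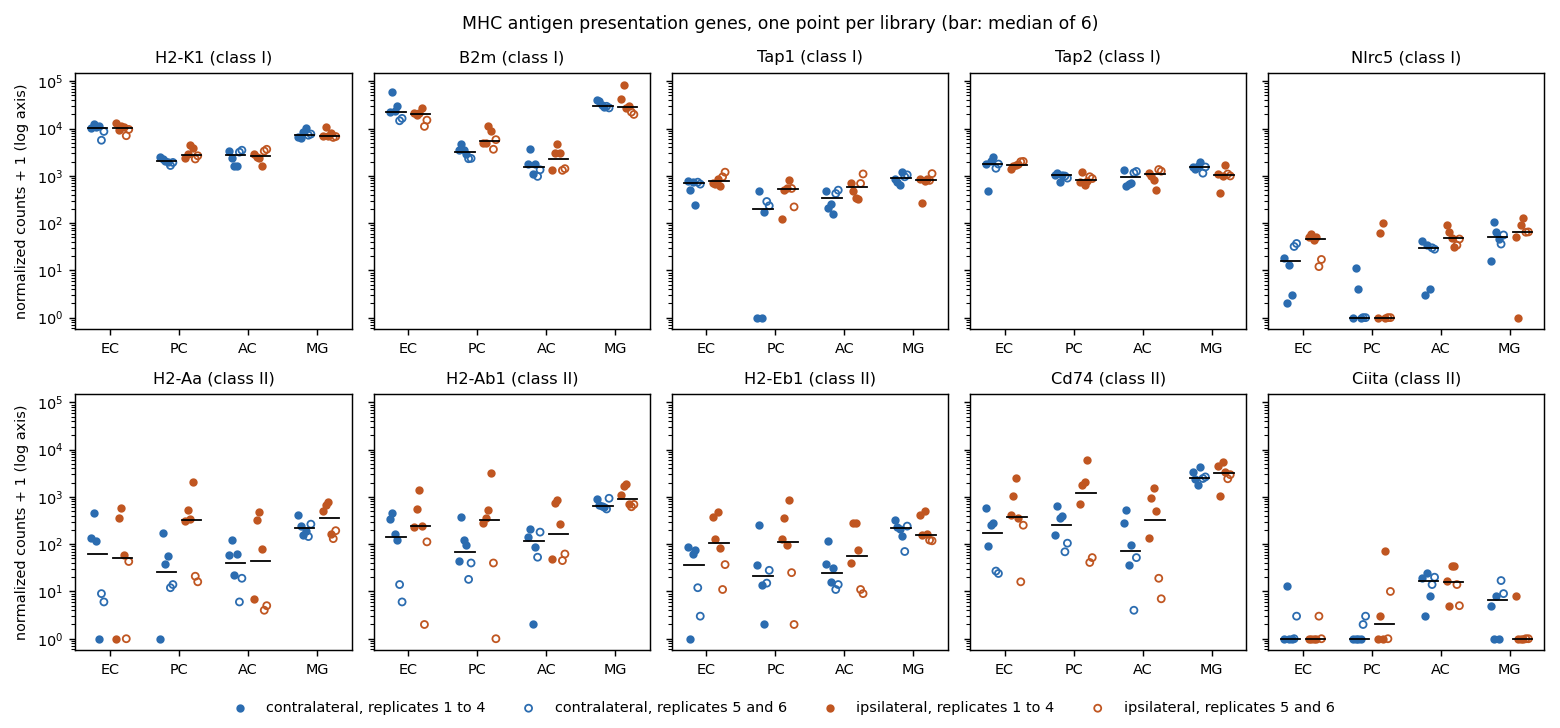
Normalized counts + 1 (log axis) of the 10 genes in the 48 libraries, by cell type and hemisphere, with filled points for replicates 1 to 4, open points for replicates 5 and 6 and a bar at the median of 6. In endothelial cells, pericytes and astrocytes the open points of *Cd74* sit lowest or among the lowest. For *Cd74* all of replicates 1 to 4 lie above replicates 5 and 6 in both hemispheres of endothelial cells and pericytes and in ipsilateral astrocytes, but not in contralateral astrocytes. For *H2-Aa* they do so in neither hemisphere of endothelial cells.

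RNA of microglia markers moved with these class II values. In endothelial cell, pericyte and astrocyte libraries the 10 summed microglia markers (*Aif1*, *Tmem119*, *Csf1r* and others) came to 1273 to 74898 normalized counts in replicates 1 to 4 and to 593 to 2725 in replicates 5 and 6. Relative to the mean of the microglia libraries of the same hemisphere, the markers stood at 4.53 to 21.3% in ipsilateral pericyte replicates 1 to 4, where *Cd74* stood at 21.0 to 185%, and at 0.198 to 0.259% in replicates 5 and 6, where *Cd74* stood at 1.21 to 1.54%. Standing above the markers was not particular to class II: in ipsilateral pericytes *H2-K1* stood at 29.5 to 59.6% and *Tap2* at 62.0 to 114%. Across the 36 libraries of these 3 cell types, which share their pools of mice, this share was correlated with that of the markers on the log2 scale. Pearson r was 0.80 for *Cd74*, 0.73 for *H2-Ab1*, 0.60 for *H2-Eb1* and 0.46 for *H2-Aa*. Other blood and border cell markers went with class II only in part. In ipsilateral pericyte replicates 3 and 4 the summed monocyte markers were 6352 and 7081, the border macrophage markers 4149 and 3271, and the neutrophil markers 12454 and 5804. In ipsilateral pericyte replicates 5 and 6 these sums were 15 and 22, 140 and 121, and 50 and 149. In ipsilateral pericyte replicate 1, where *Cd74* was at 693, the neutrophil markers summed to 26. The 7 dendritic cell markers summed to 958 and 911 in ipsilateral pericyte replicates 3 and 4. They summed to 195 and 181 in replicates 1 and 2 and to 371 and 397 in replicates 5 and 6, with *Xcr1* and *Clec9a* at 0 in all 6. In contralateral endothelial cells the dendritic cell markers summed to 570 to 1637 in replicates 1 to 4 and to 1592 and 1661 in replicates 5 and 6. Of the 7 markers only *Zbtb46* was above 10 in all 6 of these libraries, so the sum need not mean dendritic cells. The 3 T and NK cell markers measured summed to at most 71 in any pericyte, endothelial cell, astrocyte or microglia library. The part of these cells in the class II values was not tested.

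**Figure D5:**
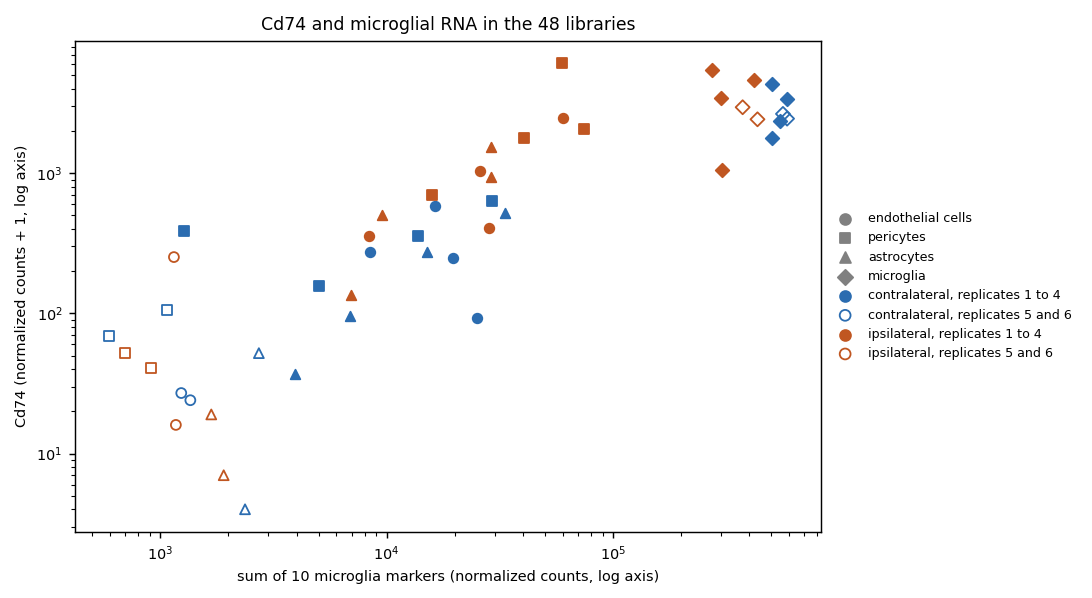
*Cd74* (normalized counts + 1) against the sum of 10 microglia markers (normalized counts), both on log axes, for the 48 libraries, by cell type (shape), hemisphere (colour) and replicates (filled for 1 to 4, open for 5 and 6). Libraries of replicates 5 and 6 of endothelial cells, pericytes and astrocytes lie at the lower left, and *Cd74* runs up to 6105 in ipsilateral pericyte replicate 4.

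The stroke effects themselves were compared between the 4 cell types in a fit of all 48 libraries. None of 54 tests of 9 members over 6 pairs passed an adjusted p of 0.05, where 0.231% of all tests over all genes did, and 4 had an unadjusted limma p under 0.05. The *B2m* effect was 1.37 log2 units higher in pericytes than in endothelial cells (SE 0.48, adjusted p = 0.41), and that of *Tap1* 2.66 higher (SE 1.26, adjusted p = 0.59). The *Tap1* effect in microglia minus that in pericytes was -3.50 (SE 1.26, adjusted p = 0.21), and the *Tap2* effect in microglia minus that in endothelial cells was -0.84 (SE 0.39, adjusted p = 0.42). The 95% interval of the *B2m* difference was 0.39 to 2.35.

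Other genes of the pathways were taken from lists of 27 class I, 21 class II and 14 interferon-γ and co-stimulation genes, which contain the members. In endothelial cells and astrocytes none of these genes was called; at an unadjusted limma p under 0.05 there were 2 class I, 1 class II and 0 interferon-γ and co-stimulation genes in endothelial cells, and 5, 1 and 3 in astrocytes. In pericytes 1 of 24 class I genes tested rose and none fell, where 0.441% of all genes tested rose. This was *Calr*, the chaperone calreticulin of the peptide loading complex, with 2530 to 4606 normalized counts contralaterally and 4763 to 7679 ipsilaterally, which do not overlap (log2FC 0.93, SE 0.18, adjusted p = 0.029, higher in 6 of 6 pairs). The *Calr* call was lost without replicate 1, 2, 4, 5 or 6, with adjusted p of 0.062 to 0.13, and in the fit of all 48 libraries (adjusted p = 0.10). *Psmb8*, a subunit of the immunoproteasome that cuts peptides for class I, was at 209 ± 101 and 594 ± 316 in pericytes (log2FC 1.52, SE 0.42, adjusted p = 0.10) and was called with the replicate block (adjusted p = 0.036), as were 1.66% of all genes. None of 18 class II genes and 13 interferon-γ and co-stimulation genes tested in pericytes passed, with 4 and 2 at an unadjusted limma p under 0.05. The median log2FC of the class II list in pericytes was 1.02, and 1.94 in replicates 1 to 4 alone, the libraries with the high marker sums above.

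In microglia, where no member passed, 9 other genes of the lists did, where 4.29% of all genes tested rose and 6.27% fell. Of 25 class I genes tested, 2 fell: *H2-T24*, a non-classical class I gene, from 303 ± 77.4 to 123 ± 30.7 (log2FC -1.29, SE 0.26, adjusted p = 0.0065), and *Tapbpl*, the peptide editor TAPBPR, from 1020 ± 161 to 617 ± 170 (-0.76, SE 0.20, adjusted p = 0.025). Of 20 class II genes tested, 3 fell and 1 rose. The genes that fell were *H2-Ob* and *H2-Oa*, the chains of H2-O, which restrains peptide loading, and *H2-DMb2*, a β chain of H2-DM, which promotes it. The other H2-DM chains did not pass: *H2-DMa* was at 5517 ± 552 and 3610 ± 1855 (log2FC -0.75, adjusted p = 0.080, limma), and *H2-DMb1* at 1660 ± 230 and 1344 ± 420 (-0.34, adjusted p = 0.25). *H2-Ob* was at 381 to 714 contralaterally and 88 to 292 ipsilaterally, without overlap (log2FC -1.85, SE 0.28, adjusted p = 0.0014, lower in 6 of 6 pairs). *H2-Oa* was at 486 ± 85.7 and 249 ± 85.8 (-1.04, SE 0.27, adjusted p = 0.025), and *H2-DMb2* at 154 ± 43.2 and 46.8 ± 30.9 (-2.08, SE 0.57, adjusted p = 0.031). *Ctsl*, the lysosomal protease cathepsin L, rose, with 19515 to 23617 contralaterally and 37757 to 105123 ipsilaterally (1.36, SE 0.23, adjusted p = 0.0023). The medians of the class I and class II lists in microglia were -0.03 and -0.31 log2 units, against -0.18 over all genes.

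Of 13 interferon-γ and co-stimulation genes tested in microglia, 1 rose and 2 fell. *Cd274*, which encodes the inhibitory ligand PD-L1, rose, with 209 to 582 contralaterally and 684 to 2028 ipsilaterally (log2FC 1.66, SE 0.30, adjusted p = 0.0030), with no overlap between hemispheres. *Ifngr1*, a chain of the interferon-γ receptor, fell from 17740 ± 2092 to 9747 ± 1632 (-0.87, SE 0.16, adjusted p = 0.0039), and *Irf2*, an interferon regulatory factor, from 879 ± 182 to 464 ± 107 (-0.93, SE 0.20, adjusted p = 0.0092). With the replicate block *Icosl* (-1.88, adjusted p = 0.045) and *Irf1* (-0.87, adjusted p = 0.047) were called lower too, where 11% of all genes were called. In the same libraries the summed microglia markers were 502730 to 589597 contralaterally and 272901 to 435632 ipsilaterally, the neutrophil markers 75 to 962 and 1283 to 17985, and the monocyte markers 120 to 661 and 638 to 3300. Their part in these differences was not tested. *H2-T24*, *Tapbpl*, *H2-Ob*, *H2-Oa*, *H2-DMb2* and *Cd274* were not called when the spread was shared with the other cell types, with adjusted p from 0.19 to 0.69, where 5.51% of all genes were called, and the call was also lost without replicate 1, 3, 4 or 6 for *Tapbpl*, without replicate 4, 5 or 6 for *H2-Oa* and without replicate 3, 4 or 6 for *H2-DMb2*.

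Over the 48 libraries the genes outside the members most like *H2-K1* in log2(normalized count + 1) were *Tpm3* (Pearson r 0.92), *H2-M3* (0.91), *Shisa5* (0.90), *Lgals9* (0.90) and *H2-D1* (0.90), of which *H2-M3* and *H2-D1* are class I heavy chains. Among the members, *B2m* had an r of 0.86 with *H2-K1*, *Tap2* of 0.54 and *Tap1* of 0.45. The genes most like *Cd74* were *Slc11a1* (0.90), *Adora3* (0.90), *P2ry6* (0.87), *Plek* (0.87) and *Bcl2a1b* (0.86), all with their highest mean in microglia. *Cd74* had an r of 0.82 with *H2-Ab1*, 0.80 with *H2-Eb1* and 0.76 with *H2-Aa*, but -0.18 with *Ciita*. These are descriptions over libraries that share cell types and pools of mice. In the deposited GRCm38 annotation the class I genes of the MHC lay with *H2-K1* at chr17:33996017-34000333, *Tap1* at chr17:34187553-34197225 and *Tap2* at chr17:34203527-34216321, and the class II genes with *H2-Ab1* at chr17:34263209-34269418, *H2-Aa* at chr17:34282744-34287827 and *H2-Eb1* at chr17:34305877-34316199. Outside the MHC lay *B2m* at chr2:122147686-122153083, *Nlrc5* at chr8:94434391-94527272, *Ciita* at chr16:10488178-10527564 and *Cd74* at chr18:60803848-60812646. Reads of related genes could be split or lost for only a few members: of all 75-base windows of the annotated transcripts, 3.10% of those of *H2-K1*, 2.40% of *Tap1*, 8.27% of *Tap2*, 0.765% of *Ciita* and 0.0462% of *Nlrc5* also occurred in another gene, and none of the other 5 members.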

How the data were processed

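Cells were sorted from both hemispheres and sequenced with SMART-Seq HT as single 75-base reads, which do not mark strand. The authors trimmed reads with Trimmomatic 0.38, aligned them to GRCm38 with STAR 2.6.1d, counted them per gene with featureCounts 1.6.3 and deposited counts normalized with DESeq2 1.18.1 and rounded, a score here and not raw counts. The planned count tests were therefore not run. For each cell type, genes with a mean of at least 10 were tested with limma 3.58.1 in R 4.3.3 on log2(normalized count + 1). Each test compared 6 against 6 libraries, with Benjamini-Hochberg adjustment over all genes. On this scale log2 changes of low genes depend on the added 1, and libraries listed at 0 can enlarge them. *Tap1* in pericytes had means of 195 and 456 but a log2FC of 3.19. Contralateral levels and differences between stroke effects came from 1 fit of 48 libraries. The fits were tested on simulated data.

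Each experiment pooled both hemispheres of the same mice, and equal replicate numbers were taken as pairs, which the sample labels do not state. For equal numbers the mean correlation of deviations was 0.38 in astrocytes, 0.23 in pericytes, 0.23 in endothelial cells and 0.14 in microglia. For other numbers it was -0.08, -0.04, -0.04 and -0.03. The lowest value for equal numbers was 0.019 in astrocytes, -0.073 in pericytes, 0.010 in endothelial cells and -0.028 in microglia. The members and lists were chosen with earlier results of these data known. Beyond the members, up to 3 called genes per pathway list, cell type and direction, those with the smallest adjusted p, and the 5 genes most like *H2-K1* and *Cd74* were named; *Psmb8*, *Icosl* and *Irf1* were named for their call with the replicate block, and *H2-DMa* and *H2-DMb1* after their values were seen. Of the lists, *H2-Q2*, *H2-Eb2* and *Pdcd1lg2* were not analysed here, and 1 marker list is not reported here.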

Additional observations from a re-analysis of the deposited data

Results flagged for a closer look

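Single libraries stood far from the other 5 of their group in 16 of 80 groups of 6 libraries. The rule flags about 1 in 20 groups only where values are independent and normally distributed. These counts are skewed, hold zeros and share libraries across genes, so no excess over chance can be read from the number. For *B2m* these were contralateral endothelial cell replicate 2 (58566 normalized counts), contralateral astrocyte replicate 2 (3661) and ipsilateral microglia replicate 2 (83884). For *H2-Aa* they were contralateral endothelial cell replicate 2 (462), contralateral pericyte replicate 2 (171) and ipsilateral pericyte replicate 4 (2053). *H2-Ab1* stood apart in contralateral pericyte replicate 2 (378) and ipsilateral pericyte replicate 4 (3245), *H2-Eb1* in contralateral pericyte replicate 2 (258) and contralateral astrocyte replicate 2 (117), and *Cd74* in ipsilateral pericyte replicate 4 (6105). The other 5 were *Nlrc5* in contralateral pericyte replicate 2 (10), and *Ciita* in contralateral endothelial cell replicate 2 (12), ipsilateral endothelial cell replicate 5 (2), ipsilateral pericyte replicate 4 (70) and ipsilateral microglia replicate 1 (7).

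*B2m* was lower ipsilaterally in 6 of 6 endothelial cell pairs and higher in 6 of 6 pericyte pairs; the difference between the effects was 1.37 log2 units (limma, adjusted p = 0.41).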

How the results depend on the processing

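No member was called in any cell type in the main test or without any 1 replicate (counts 0 to 0). The exceptions were 1 member in pericytes in the fit of 48 libraries (*Tap1*) and 1 in astrocytes with the replicate block (*Tap1*, adjusted p = 0.032, limma); the block changed no other member's call in the stroke comparison. No difference in stroke effect was called without any 1 replicate (0 to 0), and contralateral differences numbered 17 to 29 instead of 25; with the block there were 29, of which the added ones were *H2-Aa* in microglia against endothelial cells and astrocytes, *H2-Ab1* in microglia against endothelial cells and *Tap2* in microglia against pericytes.

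The direction turned in replicates 5 and 6 alone for *Nlrc5* (-1.27) and *H2-Aa* (-0.16) in endothelial cells, *H2-Ab1* (-2.08), *H2-Eb1* (-1.54) and *Cd74* (-0.88) in pericytes, *H2-Ab1* (-0.89), *H2-Eb1* (-0.32), *Cd74* (-0.32) and *Ciita* (-1.0) in astrocytes, *B2m* (-0.43), *Nlrc5* (0.52), *H2-Aa* (-0.30), *H2-Ab1* (-0.14) and *H2-Eb1* (-0.11) in microglia, and the *Tap1* effect of pericytes minus endothelial cells (-0.19). In replicates 1 to 4 alone it turned for *H2-K1* in endothelial cells (-0.00046) and microglia (0.042), with rescaling for *H2-K1* in microglia (0.034), with a pseudocount of 0.1 for *H2-Aa* in endothelial cells (-0.43) and with 10 for *Nlrc5* in microglia (0.048). Leaving out 1 replicate or library gave -0.13 to 0.34 for *Tap2* and -1.09 to 1.49 for *H2-Aa* in endothelial cells, -0.036 to 0.20 for *Tap2*, -0.77 to 0.73 for *H2-Aa* and -0.20 to 0.63 for *Ciita* in astrocytes, and -0.18 to 0.038 for *H2-K1*, -0.22 to 0.15 for *B2m*, -0.76 to 0.92 for *Nlrc5*, -0.063 to 0.39 for *H2-Eb1* and -0.19 to 0.41 for *Cd74* in microglia. The cause was not tested. Leaving out single libraries was chosen after seeing the data. Read depth was legible in 14 of 48 libraries, where 1 read was worth 0.72 to 2.37 normalized counts, so values of *Nlrc5* and *Ciita* rest on few reads.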
